A study of Caenorhabditis elegans with 2 samples.

Results

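The peaks described here are the JUN-1 ChIP-seq peaks whose summit lay close to the start of 1 protein-coding gene on an autosome. A peak was a member when it was in the deposited IDR list (irreproducible discovery rate, a filter for peaks ranked similarly by the replicates), was not on the X chromosome, and had its summit in the window from 1000 bp upstream to 200 bp downstream of the start of exactly 1 gene, at most 300 bp from that start. These were 404 peaks among 2305 IDR peaks (17.53%), and they made up 37.9% of the 1066 autosomal peaks in a promoter window. The remaining autosomal promoter peaks were 273 single-gene peaks farther upstream and 389 peaks whose summit lay in the windows of several genes. Another 789 autosomal peaks were outside these windows, and 450 peaks were on X. Each of the 404 peaks had a gene of its own. Position near a start records where the peak was and does not show regulation.

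The worms (Caenorhabditis elegans) were L1 larvae, the first larval stage, taken whole and with males and females pooled, and their chromatin was immunoprecipitated and sequenced. The strain was OP234, which carries the unc-119(ed3) mutation on III and the transgene wgIs234, from which eGFP-tagged jun-1 is expressed. There were 2 biological replicates from separate biosamples, and they formed the only group. Whole animals were used, so the signal of a peak was summed over all cell types, and the tagged protein came from a transgene in addition to any endogenous JUN-1. The labels name jun-1 as the antibody target, and the notes deposited with the lists name 1 control alignment shared by both replicates. Read counts are absent from the lists, and library depth is therefore unknown. All IDR peaks had the same −log10 q-value of 3.73, so peaks were ranked by the deposited signal, which is the authors' own value. Peaks were compared by it only within a list, and the values of a peak in both replicate lists are set side by side without knowledge of how each list was scaled.

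Jun proteins are basic leucine zipper (bZIP) transcription factors. They bind DNA as dimers, with Fos proteins or other bZIP partners, at the AP-1 element TGACTCA, which reads in the opposite direction as TGAGTCA, and, with some partners, at the related cyclic AMP response element (CRE) TGACGTCA. In vertebrates AP-1 responds to growth and stress signals through kinases such as JNK. Many nematode messages receive a spliced leader in place of their original 5′ end, so an annotated gene start in this worm is often the splice site or the start codon and lies downstream of the place where RNA polymerase began.

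A set of windows centred on summits shows the range of sequence at the strongest members and at members with each element. The peaks at rpl-3 and cdc-48.1 were the strongest members and held none of the 5 elements marked. Those at tos-1, ntl-11, C34C12.8, xbp-1, nhr-50 and sti-1 held at least 1 of them. Sequences are from the RefSeq copy of WBcel235 (ce11), on the strand of the gene, 5′ to 3′, and shorter where the window ran into an annotated UTR. Capitals mark an AP-1 element (TGACTCA or TGAGTCA), a CRE (TGACGTCA), the 9-base element CTGCGTCTC (or GAGACGCAG), the GA repeat GAGAGAGA (or TCTCTCTC) and the E-box CACGTG, the site of basic helix-loop-helix proteins. The windows were chrIII:3867475-3867674, plus strand for rpl-3, chrII:10563476-10563675, minus strand for cdc-48.1, chrV:9344222-9344421, minus strand for tos-1 and chrIV:15471522-15471721, minus strand for ntl-11. They were chrIII:3460155-3460354, plus strand for C34C12.8, chrIII:4193690-4193808, plus strand for xbp-1, chrV:16000632-16000755, minus strand for nhr-50 and chrV:773347-773517, plus strand for sti-1.
rpl-3: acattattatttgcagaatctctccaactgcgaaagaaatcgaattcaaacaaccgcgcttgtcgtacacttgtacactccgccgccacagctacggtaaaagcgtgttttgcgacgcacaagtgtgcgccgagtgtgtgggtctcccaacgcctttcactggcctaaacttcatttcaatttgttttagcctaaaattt
cdc-48.1: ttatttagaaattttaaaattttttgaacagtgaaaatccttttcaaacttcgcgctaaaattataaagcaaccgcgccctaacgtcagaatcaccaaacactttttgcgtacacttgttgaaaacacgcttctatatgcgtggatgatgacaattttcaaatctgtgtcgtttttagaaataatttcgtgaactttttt
tos-1: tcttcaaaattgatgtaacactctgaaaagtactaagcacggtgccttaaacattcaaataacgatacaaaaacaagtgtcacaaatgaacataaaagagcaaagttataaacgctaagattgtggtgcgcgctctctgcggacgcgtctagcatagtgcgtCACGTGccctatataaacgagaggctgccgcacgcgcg
ntl-11: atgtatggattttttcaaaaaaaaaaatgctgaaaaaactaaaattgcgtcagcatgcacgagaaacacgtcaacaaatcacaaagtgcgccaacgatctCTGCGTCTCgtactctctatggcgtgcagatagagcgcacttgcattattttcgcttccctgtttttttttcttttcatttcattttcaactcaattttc
C34C12.8: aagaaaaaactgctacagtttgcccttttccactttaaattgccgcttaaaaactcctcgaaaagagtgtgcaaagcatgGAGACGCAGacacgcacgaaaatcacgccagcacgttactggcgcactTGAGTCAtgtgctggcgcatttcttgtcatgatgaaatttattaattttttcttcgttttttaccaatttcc
xbp-1: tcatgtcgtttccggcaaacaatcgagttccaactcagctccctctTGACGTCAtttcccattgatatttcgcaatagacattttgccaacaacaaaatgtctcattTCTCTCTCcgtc
nhr-50: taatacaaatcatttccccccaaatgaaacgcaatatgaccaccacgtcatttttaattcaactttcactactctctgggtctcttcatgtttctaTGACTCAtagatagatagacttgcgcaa
sti-1: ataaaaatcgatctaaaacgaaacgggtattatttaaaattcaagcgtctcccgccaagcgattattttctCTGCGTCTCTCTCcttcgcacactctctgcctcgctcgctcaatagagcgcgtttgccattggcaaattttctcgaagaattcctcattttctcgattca

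The strongest member lay upstream of rpl-3, which encodes a protein of the large ribosomal subunit, with a signal of 455.2. In the replicate lists it reached 270.3 (replicate 1) and 183.8 (replicate 2), and its summit lay 279 bp upstream of the annotated start. Second was cdc-48.1, the worm p97 ATPase that extracts ubiquitinated proteins, with 329.3 in the IDR list, 209 in replicate 1 and 118.5 in replicate 2, and a summit 169 bp upstream. Its summit also lay in the window of a small nucleolar RNA gene. In replicate 2 the peaks of his-37, tos-1 and eelo-2 exceeded that of cdc-48.1, whereas rpl-3 was highest of these in both replicates. The histone H4 gene his-37 had 295.8 (162.8 and 126.5 in replicates 1 and 2) with a summit 92 bp upstream. The worm has many near-identical H4 copies, and how the authors placed reads that map to several copies is not given in the sources used here. Next came tos-1 with 278.4 (157.9 and 125.1, 119 bp upstream) and cox-5A, a subunit of cytochrome c oxidase, with 273.8 (167.5 and 106.8, 293 bp upstream).

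The remaining peaks among the 20 strongest had signals from 145.1 to 239.9. They included wwp-1, a HECT ubiquitin ligase (190.9, with 111.2 in replicate 1 and 76.1 in replicate 2), and ints-4, a subunit of the Integrator complex (175.3, with 100.2 and 75.29). The gene ntl-11, a subunit of the CCR4-NOT complex that shortens poly(A) tails, had 172.3 (110.7 and 60.2). The list also held dld-1, the dihydrolipoamide dehydrogenase of mitochondria (157.2, with 102.2 and 56.54), hat-1, a histone acetyltransferase (149.8, with 89.28 and 58.95), and bag-1, an Hsp70 co-chaperone (145.1, with 96.93 and 47). The value in the replicate 1 list was the higher one for each of these 6 genes, as for most members. Some of the others carry only a sequence name, such as C47E8.4 (193.1), Y39E4B.6 (170.5) and C34C12.8 (146.4).

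Signal was unevenly spread over the class. The median was 43.99, with an interquartile range of 34.24 to 64.11 and a full range of 28.39 to 455.2. Of the 404 peaks, 41 exceeded a signal of 100 and 242 (59.9%) were below 50. Peaks farther upstream had a median of 46.69 and shared peaks one of 51.79. In replicate 1 the medians were 25.52 near the start, 27.69 farther upstream and 30.27 for shared peaks, and in replicate 2 they were 18.62, 20.98 and 20.46. The near-start median was therefore the lowest of the 3 in both replicates, although the order of the other 2 differed between replicates. With 500 bp in place of 300 bp as the limit, the ratio of the near-start to the farther-upstream median in the IDR list turned from 0.94 to 1.00. Of the near-start peaks, 192 were among the 1152 strongest IDR peaks (47.52%, 95% Wilson interval 42.7 to 52.39), against 55.68% farther upstream and 61.95% of shared peaks. These intervals cover counting of peaks only, and with 2 replicates of 1 group no test over samples was possible.

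The peaks in the list were mostly 344 bp wide, and 17 members were narrower, between 108 and 238 bp. The narrow peaks had a median signal of 190.9, against 43.12 for the 387 wide ones, and 12 of the 20 strongest members were narrow.

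**Figure D1:**
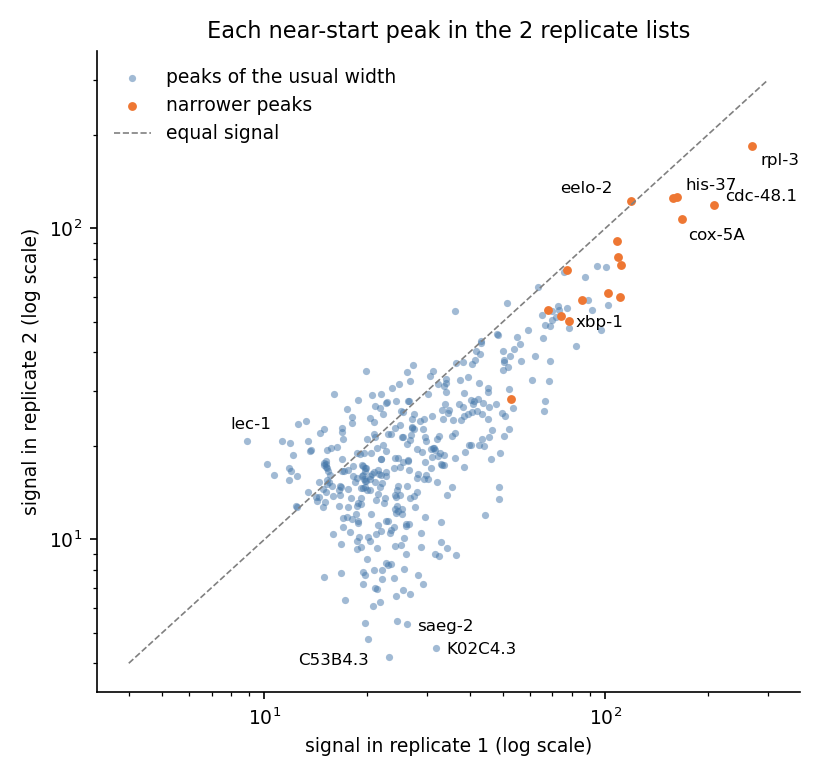
Signal of each near-start peak in the replicate 1 list (x axis, log scale) and the replicate 2 list (y axis, log scale). Orange points are the narrower peaks, and the dashed line marks equal signal, below which 328 peaks lie.

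The replicate lists held 28101 (replicate 1) and 30000 (replicate 2) peaks, and the IDR list was made from them. Overlap of members with these lists was therefore largely fixed in advance and is no sign of reproducibility. A peak of the replicate 1 list overlapped all 404 members, and a peak of the replicate 2 list overlapped 402, the exceptions being penr-1 and ttc-37. Across those 402 the rank correlation of the 2 signals was 0.60 (Spearman, a description across peaks that share libraries and a control), against 0.63 farther upstream and 0.71 for shared peaks. Summits differed between replicates by a median of 21.5 bp, 320 of 402 (79.6%) were within 50 bp of each other, and the largest difference was 285 bp. The value was higher in the replicate 1 list for 328 peaks, with a median ratio of 1.39 beside 1.37 over all IDR peaks, and the part of list scaling in this was not tested. The spread about that ratio was wide at weak peaks. K02C4.3 had 31.9 in replicate 1 and 4.47 in replicate 2, whereas lec-1, which encodes a galectin, had 8.88 and 20.7. The regulatory factor X gene daf-19 had 11.27 and 20.66. Of the near-start peaks, 267 (66.09%) were overlapped by one of the 2305 strongest peaks of both replicate lists, against 75.82% farther upstream, 79.18% of shared peaks and 70.24% of all.

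Summits were upstream of the start in 374 of 404 cases (92.57%, 95% Wilson interval 89.6 to 94.75), and 30 were at or downstream of it. The limit of 300 bp applied on both sides, but the promoter window reached only 200 bp downstream, so the share is a description of position within the rule. The median summit lay 149 bp upstream, with quartiles at 217 and 81.25 bp, and 57 summits (14.11%) were within 50 bp of the start. The start codon was a median of 22 bp downstream of the annotated start in the 403 genes with one annotated, and the summit a median of 197 bp from the start codon. The nearest summits were 2 bp downstream of rbm-39 (78.27), and 3 bp upstream of cbp-1 (30.82), the worm CBP/p300 acetyltransferase, and of snpc-3.4 (45.39). The members just inside the limit were F13H8.2 and F26F2.7 at 299 bp and ZK829.7 at 300 bp, with signals of 48.69, 39.88 and 52.2. Just outside were rps-4 at 301 bp (66.48), Y82E9BR.3 at 305 bp (88.7) and lgg-2, an Atg8 family gene, at 305 bp (148.4). Across the 404 peaks the Spearman correlation of signal with signed distance was −0.10, a description with no test. Median signals of the 50 bp bins upstream ran from 37.96 to 46.59 with no order along the promoter. They were 37.53 for the 11 peaks from the start to 50 bp downstream and 35.58 for the 19 peaks farther downstream, below each upstream bin.

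**Figure D2:**
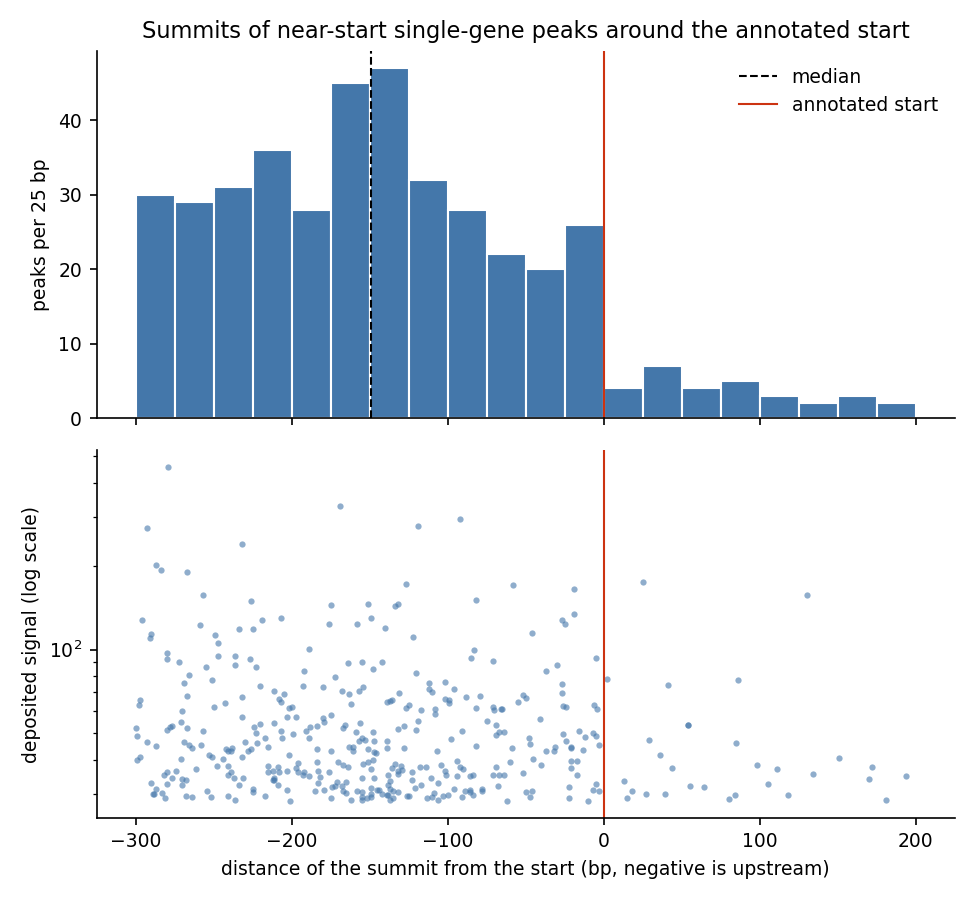
Upper panel, number of near-start summits per 25 bp against distance from the annotated start (bp, negative is upstream). Lower panel, deposited signal of each peak (log scale) at the same distance. Summits lie mostly upstream, around a median of 149 bp, and strong peaks occur throughout.

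Of the summits, 344 (85.15%) lay between protein-coding genes, 23 in an intron and 7 in an exon of another gene, 22 in the gene's own 5′ UTR, 7 in its own coding sequence and 1 in its own intron. The upstream neighbour was a median of 1405 bp away, close to the 1386 bp of the 14283 autosomal genes that have some sequence near their start outside other genes' windows, and farther than the 1020 bp of all autosomal genes. The neighbour pointed the other way in 162 cases (40.1%), against 45.6% of all autosomal genes. The single-gene rule itself favours genes with distant neighbours.

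The 404 genes were 2.34% of the 17242 autosomal protein-coding genes and 2.83% of the 14283 that could have had such a peak. Single-gene peaks farther upstream belonged to 1.55% of genes, and 4.6% had a shared peak in their window. Genes were grouped by 30 lists, of which 111 members fell in at least 1, so 293 of the 404 are in no list. The list of endoplasmic reticulum (ER) folding and the unfolded protein response had the highest share of all its autosomal genes, 5 of 22 (22.73%, 95% Wilson interval 10.12 to 43.44). Among genes with sequence near their start outside other windows it was 33.33%, beside 34.38% for ribosomal proteins and 30.77% for proteasome subunits. They were cdc-48.1, xbp-1, crt-1, manf-1 and ire-1. The bZIP factor xbp-1, spliced by the sensor IRE-1 under ER stress, reached 133.9 (77.46 and 55.43 in the replicate lists), and its summit was 19 bp upstream. The ER calcium-binding chaperone crt-1 had 86.32 (36.12 and 54.13), manf-1 had 50.99 and the sensor ire-1 itself 30.82, near the weak end of the class. The share of all autosomal genes was 2.34%, and no test was made of any list.

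Among bZIP factors 4 of 26 genes (15.38%, interval 6.15 to 33.53) were members. Besides xbp-1 they were atfs-1, the activator of the mitochondrial unfolded protein response (60.5, with 35.74 and 24.22), zip-11 (40.55, with 19.95 and 21.08) and zip-10 (29.58). Without replicate 2 the share of the list was 7.69%. For list shares, leaving out a replicate means taking the 2305 strongest peaks of the other replicate list, with no IDR filter. The summit of zip-11 was 151 bp downstream of its start and that of atfs-1 70 bp upstream. The JNK and p38 stress kinase list held 1 member of 18 genes, and the interval of its share, 0.99 to 25.76%, contained the 2.34% of all genes. That member was unc-16, the scaffold of the JIP3 family, with 68.41 (40.28 and 28.16) and a summit 52 bp upstream. Among genes of autophagy and the lysosome 8 of 52 (15.38%, interval 8.01 to 27.52) were members, with signals from 30.75 to 66.15. They included lgg-1, the worm Atg8 protein (56.97), epg-8, an Atg14 homologue (43.93), and cathepsin genes such as cpr-3 (66.15), cpr-4 (42.99) and cpl-1 (32.48). Among the 1152 strongest IDR peaks the share was 3.85%, against 1.11% of all autosomal genes.

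Chromatin regulators contributed 12 of 79 genes (15.19%, interval 8.91 to 24.7). The DREAM complex gene lin-9 had 123.8 (69.94 and 54.36), the H4K20 methyltransferase gene set-4 had 110 (51.37 and 57.51) and the SWI/SNF subunit swsn-3 had 72.18 (42.46 and 28.19). The Polycomb gene mes-2 had 55.22, the H3K36 methyltransferase met-1 38.39 and the H3K4 methyltransferase set-2 34.51. The first 3 were the strongest of the list, and met-1 and set-2 lay below the class median. Among the 1152 strongest IDR peaks the share of the list was 7.59%, against 1.11% of all autosomal genes.

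Cytoplasmic ribosomal protein genes gave 11 of 80 (13.75%, interval 7.86 to 22.97), or 34.38% of the 32 with sequence near their start outside other windows. With peaks of all promoter classes 59 of the 80 had a peak, 41 of them a shared one. Beside rpl-3 the strongest were rpl-41.2 (122.6, with 82.14 and 42.01) and rpl-24.2 (120, with 71.49 and 51.83), followed by rps-24 (92.81) and ubl-1 (74.02). Their summits lay 140 to 293 bp upstream, and at a limit of 200 bp the share was 3.75%, against 1.61% of all autosomal genes. Mitochondrial ribosomal proteins gave 5 of 66 (7.58%), led by mrpl-28 (110.8, with 68.84 and 37.5). Translation factors gave 3 of 39 (7.69%), led by eif-3.B (97.35, with 68.3 and 32.4).

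Nuclear pore and transport genes gave 5 of 40 (12.5%, against 2.34% of all autosomal genes), with the importin beta gene imb-3 highest at 113.5 (65.1 and 52.64). Among the 1152 strongest IDR peaks that share was 5%, against 1.11% of all autosomal genes. Proteasome subunits gave 4 of 33, with rpn-11 at 61.96 (26.14 and 34.66) and rpt-6 at 42.96 (29.63 and 11.8). The proteasome share of 12.12% was 6.06% without replicate 1 and 3.03% among the 1152 strongest IDR peaks. Respiratory chain and ATP synthase genes gave 4 of 46 (8.7%), with cox-5A and cox-5B (127.8, with 78.37 and 47.68) the strongest. Cell cycle and replication genes gave 5 of 59, with pcn-1, the sliding clamp of replication, at 112.4 (65.87 and 44.45), and the share of 8.47% was 5.08% without replicate 1 and 13.56% without replicate 2. The 67 splicing factors had 5 members (7.46%) with signals from 61.33 to 90.4.

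Mitochondrial import and dynamics gave 3 of 22 genes, led by tomm-20, a receptor of the outer membrane translocase (90.47, with 66.26 and 25.96). That share of 13.64% was 4.55% without either replicate and 0 at a limit of 200 bp. The ubiquitin pathway gave 3 of 33, which were cdc-48.1 and its partner genes ufd-3 (58.72, with 33.47 and 24.33) and ufd-2 (44.86, with 33.07 and 11.36). Chaperones gave 3 of 64 (4.69%, and 3.12% without replicate 1). The interval of that share, 1.61 to 12.9%, contained the 2.34% of all genes. The 3 were dnj-9, a J-domain protein, at 118.6 (69 and 48.68), sti-1 at 91.16 and the prefoldin subunit pfd-3 at 43.12 (34.24 and 9.38). The values of pfd-3 and ufd-2 differed more between the lists than the median ratio of 1.39. Cytoskeleton and muscle genes gave 4 of 54, from arx-7 to tba-2, and they included unc-112, the worm kindlin (44.29, with 21.45 and 19.74), and the intestinal actin act-5 (32.36, with 11.85 and 20.39).

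For several other lists the interval, like that of chaperones, contained the share of all genes. Histones gave 3 of 77 (3.9%, and 2.6% without replicate 1), or 3 of the 14 with sequence near their start outside other windows (21.43%, against 2.83% of all such genes). They were, beside his-37, the linker histone hil-7 (46.7, with 19.82 and 34.76) and his-72, an H3.3 gene (29.53, with 22.67 and 15.99). RNA polymerase II and general transcription factors gave 2 of 55, the kinase cdk-7 (61.1, with 34.14 and 31.91) and the Mediator subunit mdt-22 (48.04, with 33.05 and 17.51), and the share of 3.64% was 1.82% without replicate 1. Vesicle traffic gave 2 of 85, vps-4 and the COPII coat gene sec-24.1 (90.18, with 50.18 and 40.22). The vacuolar proton pump gave 1 of 18, vha-16, and none without replicate 1, and the aminoacyl-tRNA synthetases 1 of 32, aars-2. C-type lectins gave 5 of 237, of which clec-78 stood far above the others with 201.3 (108.5 and 91.32), followed by clec-72 with 71.16 (43.89 and 27.43). Their share of 2.11% was 1.27% without replicate 1. Detoxification enzymes gave 2 of 171, cyp-33C8 (48.87, with 27.53 and 22.71) and ugt-20 (30.86, with 16.96 and 11.71).

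Of 1331 chemoreceptor genes 1 was a member (0.0751%, interval 0.0133 to 0.424), which was below the 2.34% of all genes. It was srh-269 with 45.23, it was lost without replicate 1, and its summit also lay in the windows of a transfer RNA gene and a non-coding RNA gene. No cuticle collagen of 146, no neuropeptide or insulin-like peptide gene of 107 and no heterochronic gene of 11 had such a peak. The upper ends of the 95% Wilson intervals for these 3 lists were 2.56%, 3.47% and 25.88%, so each interval contained the share of all genes. Of 305 F-box genes 2 were members, fbxb-72 (43.96) and fbxa-63 (35.38), with an interval of 0.18 to 2.36% and a share of 0.656%, or 1.31% without replicate 2. Nuclear hormone receptors had 9 of 247 (3.64%, interval 1.93 to 6.78), an interval that contains the share of all genes, and the strongest was nhr-50 with 123.8 (68.08 and 54.77).

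**Figure D3:**
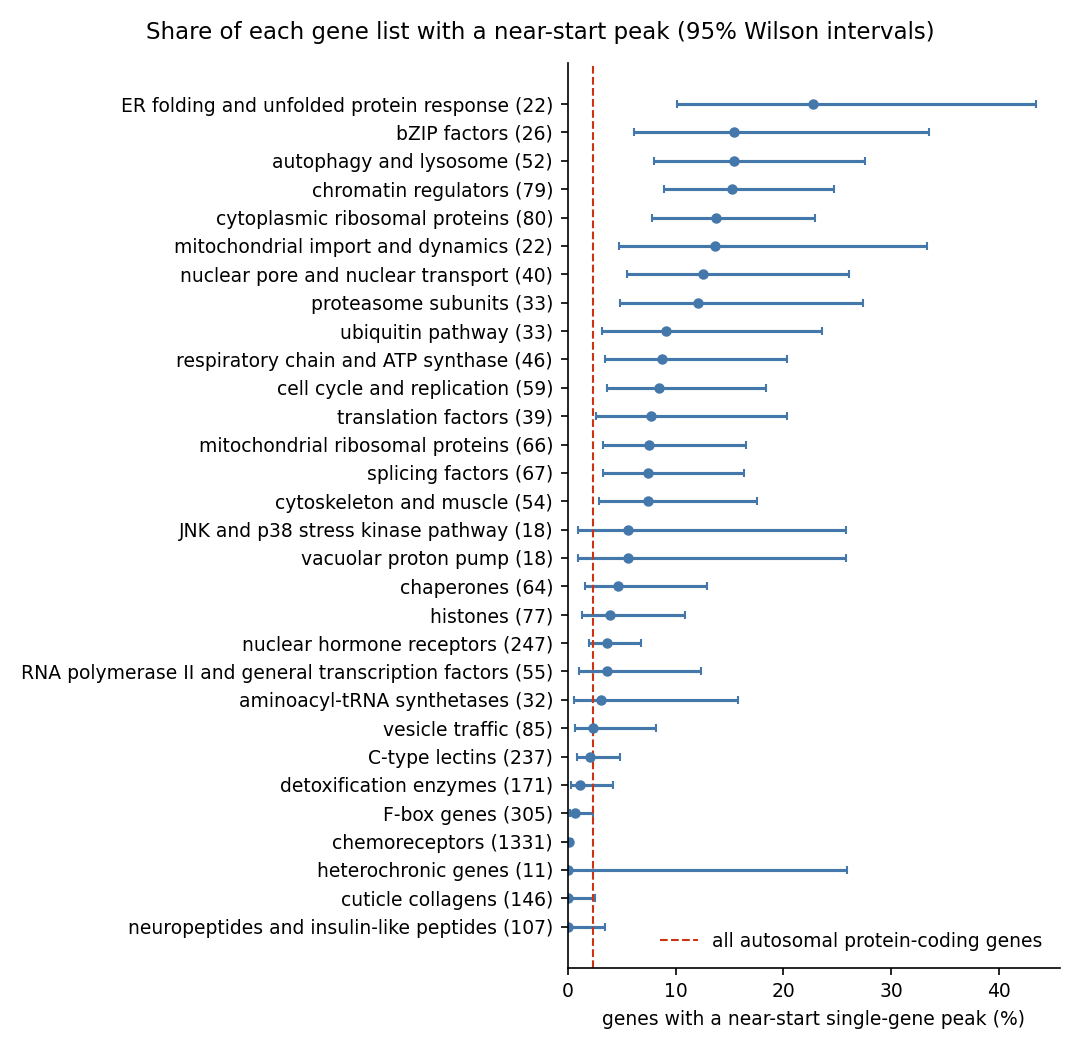
Percentage of the autosomal genes of each list that had a near-start single-gene peak, with 95% Wilson intervals and the number of genes in parentheses. The dashed line is the 2.34% of all autosomal protein-coding genes, and the ER, bZIP, autophagy, chromatin and ribosomal lists lie highest.

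Both strands of a 200 bp window around each summit were searched for the elements, and an equal window was placed at 17242 autosomal starts at the median summit distance. The AP-1 element was in 21 windows (5.2%, interval 3.43 to 7.82), against 2.62% of all starts, 2.48% of windows 500 bp upstream and 0.99% of windows 500 bp downstream. In windows of 100 bp the share was 2.97%, against 1.31% of all starts. The CRE was in 5 windows (1.24%), against 1.18% of all starts. Over all IDR peaks the AP-1 share was 4.9%, with 6.23% farther upstream, 2.31% at shared peaks, 5.07% outside promoter windows and 5.78% on X, so the near-start share was near that of all peaks. Most members held neither, since 25 of 404 (6.19%) had an AP-1 element or a CRE. The peak of C34C12.8 printed above held both an AP-1 element and the CTGCGTCTC element, and its signal was 91.49 in the first replicate and 54.55 in the second. That of nhr-50 held 1 AP-1 element, and that of xbp-1 a CRE.

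Members with an AP-1 element had signals from 28.39 to 156.7, and the 14 strongest members of the class held none. The strongest was Y18D10A.4 (156.7, with 87.45 and 69.87), with its summit 130 bp downstream of the start. Others were tba-2, an alpha-tubulin (143.2, with 85.26 and 58.78), vps-4, the ESCRT ATPase (106, with 59.27 and 46.98), and gex-3 of the WAVE actin-regulating complex (66.02, with 43.53 and 21.05). At the weak end were pkc-3, the atypical protein kinase C of polarity (33.07, with 14.97 and 22.73), and arx-7, a subunit of the Arp2/3 complex (29.96, with 18.64 and 12.82). The median signal was 44.29 with an AP-1 element and 43.93 without. In the first replicate the medians were 24.69 with and 25.57 without, and in the second 21.05 and 18.36, so the order differed between replicates. Of the 20 strongest members 2 held an AP-1 element and none held a CRE.

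The element CTGCGTCTC was the commonest of the 5, in 58 windows (14.36%, interval 11.27 to 18.11). It was in 2.46% of windows at all starts, 0.5% of windows 500 bp upstream and none of those 500 bp downstream. The element was chosen with earlier results of these data known, so these comparisons are a description and not independent support. Farther upstream peaks held it in 19.41% and shared peaks in 10.03%, and the interval near the start overlapped those of both. It was in 20.03% of autosomal peaks outside promoter windows and in 15.27% of all IDR peaks, so the near-start share was near that of all peaks. Of its 60 copies 49 (81.67%) were within 50 bp of the summit, 38 on the strand of the gene and 22 on the other. Members with the element had a median signal of 49 and those without one of 43.37, with 27.32 against 25.33 in replicate 1 and 21.03 against 18.23 in replicate 2. The strongest were ntl-11 and Y39B6A.43 (165.2, with 102 and 61.84). By position the share was 10.17% of the peaks 250 to 300 bp upstream, 5.97% of those 200 to 250 bp upstream and 23.91% of those within 50 bp upstream, in bins of 59, 67 and 46 peaks. The same element was in the windows of hmg-1.2, an HMG box protein (68.18), ruvb-2, a RuvB-like ATPase (70.02), and allo-1, an autophagy receptor for paternal organelles (86.78).

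The GA repeat was in 31 windows (7.67%, interval 5.46 to 10.69), against 2.58% of all starts, 15.02% of peaks farther upstream and 6.17% of shared peaks. Over all IDR peaks the share was 13.36%. Its 31 members had 131 copies, overlapping ones included, and a median signal of 40.11, against 44.08 for the others. The order differed between replicates, with 23.61 against 25.95 in replicate 1 and 19.52 against 18.53 in replicate 2. In sti-1, the Hsp90 co-chaperone, it overlapped the end of the CTGCGTCTC element, as the sequence above shows, and the peak had 91.16 (52.46 in replicate 1 and 38.93 in replicate 2). The E-box CACGTG was in 29 windows (7.18%, interval 5.04 to 10.12), against 4.06% of all starts and 5.2% and 3.47% of the windows 500 bp up- and downstream and 7.9% of all IDR peaks. Its strongest member was tos-1, followed by imb-3 and swsn-3. Of the 404 windows 284 (70.3%) held none of the 5 elements, 99 held 1, 18 held 2 and 3 held 3. At 11 members the GA repeat and CTGCGTCTC occurred together, and at 6 the AP-1 element and CTGCGTCTC. The median signal was 44.24 with any of the elements and 43.93 with none, and among the 20 strongest members 5 held any.

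**Figure D4:**
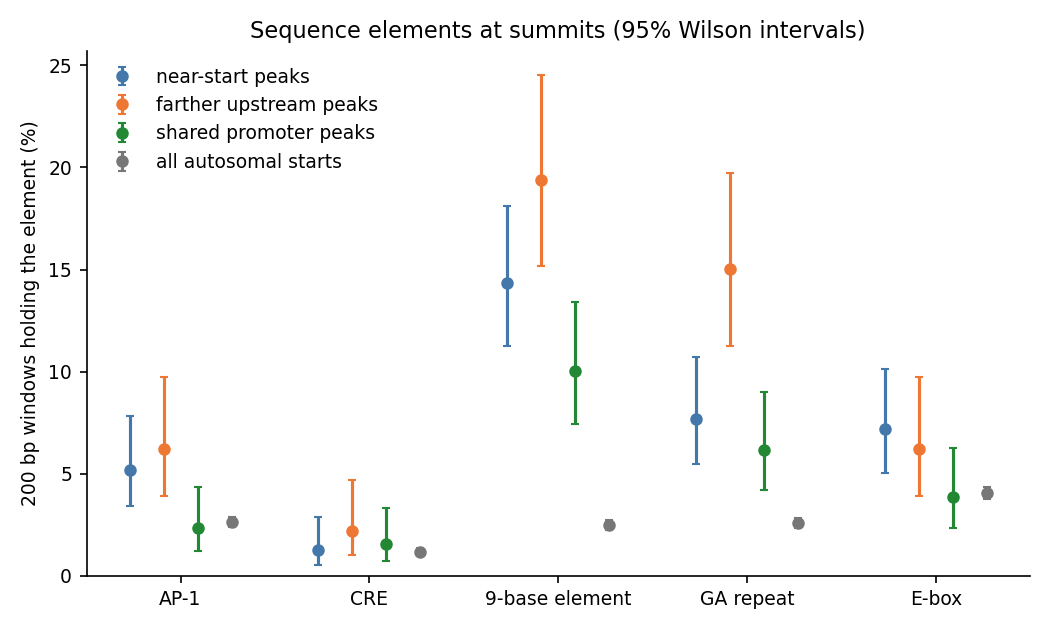
Percentage of 200 bp windows holding each of 5 elements at near-start peaks, farther upstream peaks, shared promoter peaks and all autosomal starts, with 95% Wilson intervals. The 9-base element reaches 14.36% near the start, against 2.46% of all starts, and was chosen with earlier results of these data known. The CRE is in 1.24% near the start, 2.2% farther upstream, 1.54% of shared peaks and 1.18% of all starts.

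**Figure D5:**
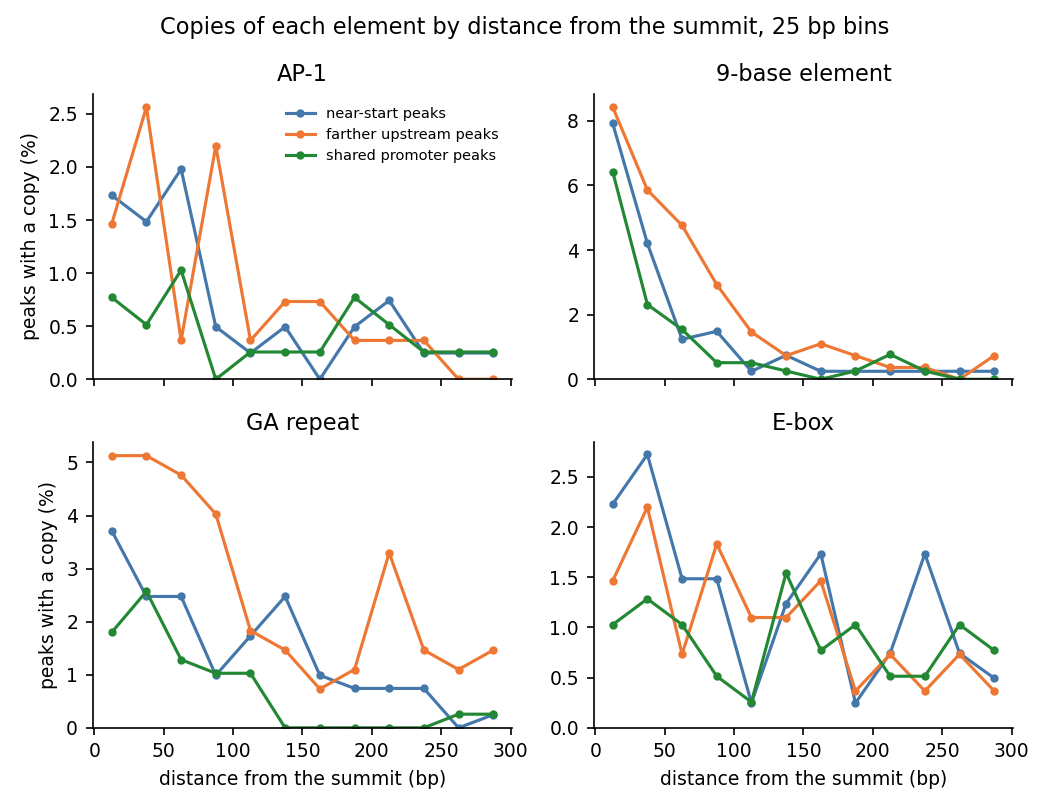
Percentage of peaks with a copy of an element in each 25 bp bin of distance from the summit, for the 3 autosomal promoter classes. The 9-base element falls from 7.92% of near-start peaks within 25 bp to 0.25% at 200 to 300 bp, and AP-1 copies are few at all distances.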

How the data were processed

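ChIP-seq of eGFP-tagged JUN-1 in L1 larvae was analysed from the authors' deposited peak lists on ce11, with signal and −log10 q-value per peak as deposited. Per the notes deposited with the lists, the authors made the IDR list out of the replicate lists and a list called on both together. For the aligner, peak caller, IDR cutoff and control scaling, nothing is given in the sources used here. The ce10 lists were not used here. Genes came from Ensembl release 115 and sequence from the RefSeq copy of WBcel235. A replicate's value for a member was the highest-signal peak of that replicate list overlapping it by at least 1 bp. Elements were 12 fixed words counted on both strands. Shares carry 95% Wilson intervals, which cover counting only. No test was made, because 2 replicates of 1 group allow none and peaks are not replicates. The members, gene lists and elements were chosen with earlier results of these data known. The text names the 20 strongest members, up to 3 of each list and element, the nearest and limiting members and the extreme replicate ratios. Other genes were named to describe lists and were chosen after their values were seen. Scripts were tested on simulated data and used Python 3.11.15, numpy 2.4.6, pandas 2.3.3 and scipy 1.17.1. The alternatives covered the distance limit, gene models, peak point, element window, peak strength and each replicate alone. Without a replicate, counts and the shares of elements and lists used the 2305 strongest peaks of the other replicate list, with no IDR filter. The ratio of medians and the upstream share kept the IDR peaks and used their values and summits in that list.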

Additional observations from a re-analysis of the deposited data

How the results depend on the processing

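Of 209 alternative values, 165 were labelled the same as reported, 43 moved and 1 reversed. A share was labelled the same when it lay inside the Wilson interval of the reported share, which is wide for small lists. The label therefore does not mean close values. Without replicate 2 it covered a bZIP share of 7.69% in place of 15.38%, and a cell cycle share of 13.56% in place of 8.47%. Counts were labelled by a fixed factor in place of an interval, under which 278 members at a 200 bp limit passed as the same as 404. The ratio of medians was labelled the same within its standard deviation between the replicates, 0.024. The number of members, 404, was 278 at a 200 bp limit, 523 at 500 bp, 393 with RefSeq starts (385 peaks kept), 469 with any transcript start and 337 without RNA gene windows. With the 2305 strongest peaks of 1 replicate list instead, it was 371 without replicate 1 and 401 without replicate 2. No IDR filter was applied and the list size was the same, so a similar count was partly built in. Of the member genes 304 and 334 were kept. The ratio of the near-start to the farther-upstream median signal was 0.94 as reported. It reversed to 1.004 at 500 bp and was 0.972 among the 1152 strongest IDR peaks, and it ranged from 0.887 to 0.922 over the replicates; the cause was not tested. The upstream share was 89.21% at 200 bp. In 100 bp windows the shares were 2.97% for AP-1, 4.7% for GAGAGAGA and 4.95% for CACGTG. In 400 bp windows they were 11.39% for GAGAGAGA and 10.15% for CACGTG, a wider window holding more sequence. Ribosomal protein genes gave 3.75% at 200 bp, where 1.61% of all autosomal genes had such a peak. With those 1152 peaks alone chromatin regulators gave 7.59% and autophagy and lysosome genes 3.85%, against 1.11% of all autosomal genes. Chemoreceptors gave 0 at 200 bp, and ranged from 0 to 0.15% over the replicates. No paired analysis was possible because the study has 1 group, with no second group to share replicate numbers. Depth is unknown, so no counting error of a single peak was given.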

Other observations

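Beside coding genes, 67 of the 404 summits (16.58%) also lay in the promoter window of an annotated RNA gene, among them 47 non-coding RNA, 18 piRNA, 15 small nucleolar RNA and 6 transfer RNA genes. Of the 404 peaks 56 (13.86%) had another IDR peak within 2 kb. Neither share was computed for other peaks or for all starts, so neither is shown to be particular to this class. Members were 2.88% of genes on chromosome I, 2.03% on II, 2.8% on III, 2.32% on IV and 2.02% on V, and 2.45% of genes in the central part of chromosomes against 2.21% on the arms.

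The TATAA word was in 113 windows (27.97%) and in 42.89% of windows at all autosomal starts. Windows 500 bp upstream and downstream of the summits held it in 31.68% and 27.48%. Its share was 21.61% farther upstream, 20.05% at shared peaks and 22.78% over all IDR peaks. The splice acceptor word TTTCAG was in 26.24% of near-start windows and 29.27% of windows at all starts. It was in 13.92% farther upstream, 23.91% of shared peaks and 16.88% of all IDR peaks. The word TTCNNGAA, a part of the heat shock element, was in 6.93% of near-start windows and 12.71% of windows at all starts. It was in 7.69% farther upstream, 12.08% of shared peaks and 7.38% of all IDR peaks. The median GC content of the window was 40%, close to the 41% at shared peaks. It was 43.5% at farther upstream peaks, 45.5% at autosomal peaks outside promoter windows and 46% at X chromosome peaks. The part of base composition in the element shares was not tested.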
